A study of Mus musculus with 8 samples.

Results

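AP-1 and immediate early transcription factors were followed across 4 subsets of mouse medullary thymic epithelial cells (mTECs). The 10 genes were Fos, Fosb, Fosl1, Fosl2, Jun, Junb, Jund, Atf3, Egr1 and Batf, chosen by name as the classic Fos and Jun subunits, the related factors Atf3 and Batf, and the zinc finger factor Egr1. They are 10 of the 25466 genes in the count table, and all 10 were among the 17006 genes that passed the filter on low counts. The cells came from the thymus of wild-type BL6N6 mice at 4–6 weeks of age. Thymus tissue was digested with collagenase and dispase, CD45-positive cells were depleted, and CD45-negative, Epcam-positive, CDR1-negative cells were sorted on Tspan8, a surface tetraspanin, and on MHC class II (MHCII). The 4 subsets were Tspan8negMHCIIlo, Tspan8negMHCIIhi, Tspan8posMHCIIhi and Tspan8posMHCIIlo, with 2 libraries each, which the labels call biological replicates. All subsets carried the same genotype and no treatment. Whether a library pooled several mice is not given in the sources used here.

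AP-1 is a dimer of basic leucine zipper proteins. Fos proteins cannot pair with each other and need a Jun partner, while Jun proteins can also pair among themselves. Atf3 and Batf join the same dimer network, and Batf can bind composite sites together with Irf4 or Irf8. Most of these genes are immediate early genes: growth factors, stress, calcium signals and tissue dissociation switch them on within minutes through MAP kinases and factors already present in the cell, and their short-lived RNAs soon decay. In squamous epithelia, AP-1 is known to act on genes of the cornified envelope. In bulk libraries such as these, fewer cells that express a gene and less RNA per cell cannot be told apart.

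Library totals were 1941518–7783841 counts, a 4.01-fold range. Levels are given as CPM, counts scaled by the library total and a TMM factor, and levels of different genes are compared only as CPM per kb of merged exon. Tspan8, the gene behind the sort, was at 3.65–14.6 CPM in the Tspan8neg libraries and 347–405 CPM in the Tspan8pos libraries. H2-Ab1, which encodes an MHCII chain, averaged 5043 ± 77.2 CPM (SD, n = 2) in Tspan8negMHCIIhi and 1887 ± 264.3 CPM in Tspan8negMHCIIlo, and 2525 ± 133.1 CPM in Tspan8posMHCIIhi against 503.4 ± 20.4 CPM in Tspan8posMHCIIlo. Aire averaged 2567 ± 128.7 CPM in Tspan8negMHCIIhi and 25.1–471.6 CPM in the other subsets, and Krt10 averaged 1631–1821 CPM in the Tspan8pos subsets and 44.0–70.1 CPM in the Tspan8neg subsets. Thymocyte markers (8 genes) summed to 362.1 and 1016 CPM in Tspan8negMHCIIlo and to 65.9–203.3 CPM in the 6 other libraries. Tuft cell markers (4 genes) summed to 837–1130 CPM in Tspan8negMHCIIlo, 127.5–138.8 CPM in Tspan8negMHCIIhi, 874–1001 CPM in Tspan8posMHCIIhi and 5267–5419 CPM in Tspan8posMHCIIlo. No marker of either list was at 0 in any library. B cell markers (4 genes) summed to 19.3–51.2 CPM, fibroblast markers (4 genes) to 44.5–161.8 CPM and cortical epithelial markers (3 genes) to 44.5–210.1 CPM over the 8 libraries, and Epcam was at 367–1081 CPM.

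Shown here are the bases just upstream of the RefSeq starts of 5 of these genes. The 5 windows were chosen from 8 windows read, after their matches had been seen. They carry, or lack, the response elements through which immediate early genes and AP-1 are known to act. They are the 120 bases before the RefSeq start on build GRCm38.p6: Fos at chr12:85473770-85473889 (+ strand), Fosb at chr7:19310046-19310165 (- strand), Jun at chr4:95052223-95052342 (- strand), Atf3 at chr1:191183334-191183453 (- strand) and Junb at chr8:84978749-84978868 (- strand). The last 6 bases of the Fosb window and the last 7 of the Atf3 window lie inside an annotated GENCODE exon. The whole Atf3 window lies within the GENCODE span of the gene (chr1:191170296-191218039), since the RefSeq start used is inside that span. Capitals mark matches to the motifs searched.
Fos: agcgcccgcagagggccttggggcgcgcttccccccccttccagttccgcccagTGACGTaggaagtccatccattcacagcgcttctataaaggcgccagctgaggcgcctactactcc
Fosb: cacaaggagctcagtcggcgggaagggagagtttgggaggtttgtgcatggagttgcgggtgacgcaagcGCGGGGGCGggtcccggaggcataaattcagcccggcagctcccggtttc
Jun: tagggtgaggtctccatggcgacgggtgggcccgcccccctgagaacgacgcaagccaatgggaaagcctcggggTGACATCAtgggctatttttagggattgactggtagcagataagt
Atf3: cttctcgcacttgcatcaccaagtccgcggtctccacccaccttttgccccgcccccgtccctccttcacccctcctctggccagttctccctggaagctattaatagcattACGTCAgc
Junb: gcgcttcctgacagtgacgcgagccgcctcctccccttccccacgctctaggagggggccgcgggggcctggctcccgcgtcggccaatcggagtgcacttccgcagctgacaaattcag
The motifs were TGANTCA (the AP-1 element) and the CArG box (serum response factor), each a palindrome that was read on 1 strand, and TGACGT (the core of the cyclic AMP response element), TGACNTCA (an AP-1 and ATF variant, added after these windows had been seen) and GCGNGGGCG (the Egr element), read on both strands. TGACGT overlaps TGACNTCA where a full cyclic AMP element is present. Fos held TGACGT from 66 to 61 bases before its start, and Atf3 held it in reverse, 8 to 3 bases before its start. Jun held TGACATCA from 45 to 38 bases before its start, and Fosb held GCGGGGGCG from 50 to 42. The Junb window held no match. Of the 3 windows not printed, Batf held TGACGT from 98 to 93 bases before its start. Fosl2 held GCGGGGGCG from 79 to 71, and Jund held no match. All 120 bases of the Fosl2 window and 51 of the Batf window lie inside an annotated GENCODE exon. The Fosl2 window thus lies within the GENCODE span of the gene. The Jund window ends at chr8:70697738, while the GENCODE start of Jund is at 70698949, so the 2 annotations place its start differently. Over all 32851 RefSeq windows of the same length, 4.55% held TGACGT, 5.07% TGACNTCA, 3.36% GCGNGGGCG, 3.41% TGANTCA and 0.749% a CArG box. These matches describe letters in a window and not bound sites.

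Most of the 10 genes had their lowest mean in Tspan8negMHCIIhi, the subset with the highest Aire. The share of all genes that were lowest there was not counted. Together the 10 genes took 1.61% and 1.45% of all counts in the Tspan8negMHCIIlo libraries and 0.691% in each Tspan8negMHCIIhi library. The share was 0.823% and 0.973% in Tspan8posMHCIIhi and 1.12% and 1.24% in Tspan8posMHCIIlo. The members that moved most were Fos, Fosb, Fosl2, Jun and Atf3. Junb, Fosl1 and Batf had an adjusted p under 0.01 in no comparison (the smallest edgeR adjusted p of these 3 genes was 0.0203, for Junb). Egr1 was also called in none, since its changes stayed under the 2-fold limit where its adjusted p was under 0.01.

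**Figure D1:**
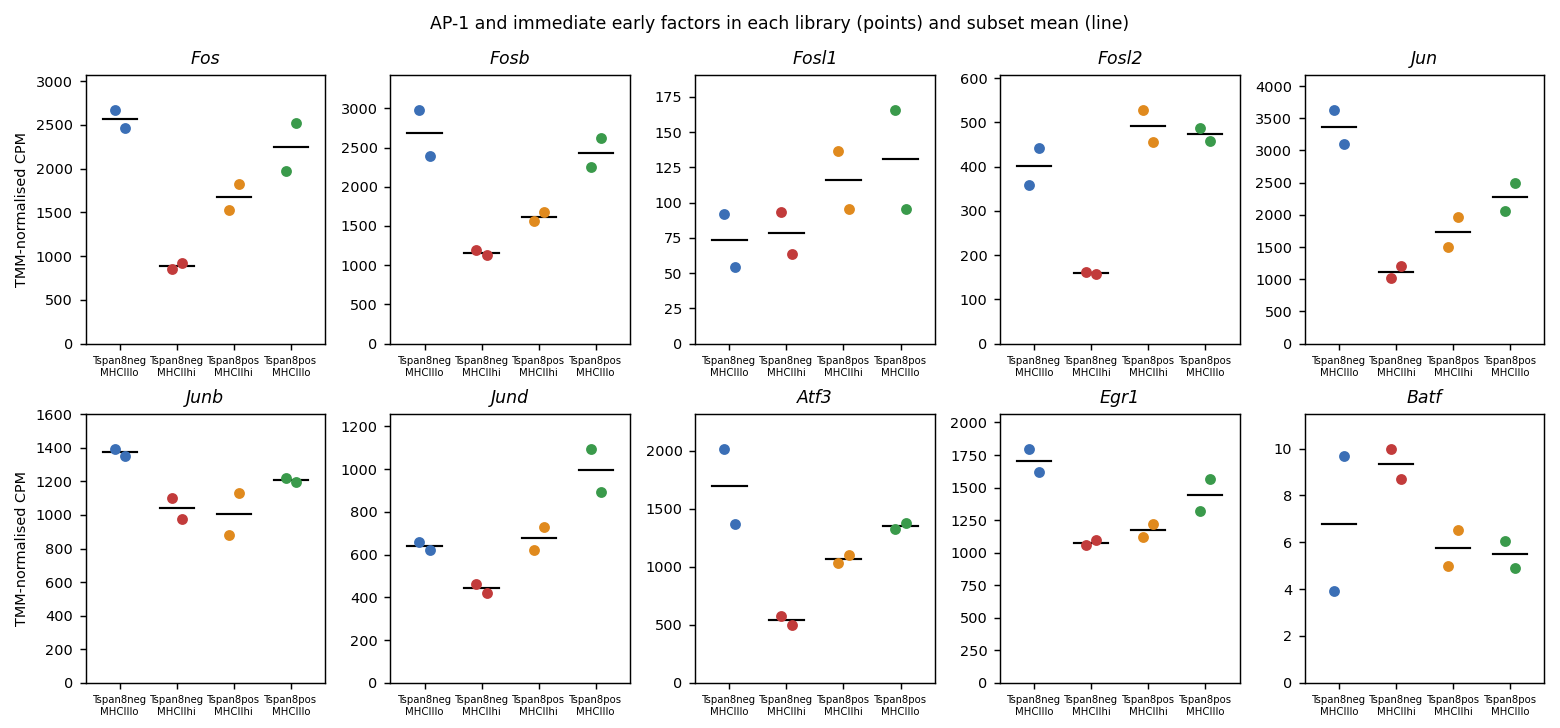
TMM-normalised CPM (linear axis from 0) of each of the 10 genes in the 8 libraries, grouped by subset on the horizontal axis; points are libraries and lines are subset means (n = 2). Fos, Fosb, Fosl2, Jun, Jund, Atf3 and Egr1 have their lowest mean in Tspan8negMHCIIhi, while Batf stays under 10 CPM in all libraries.

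The Fos family supplies the subunits that depend on Jun. Fos (ENSMUSG00000021250, chr12:85473890-85477273, + strand), the founding member, was at 2673 and 2465 CPM in Tspan8negMHCIIlo and at 854.5 and 916.5 CPM in Tspan8negMHCIIhi. It was at 1531 and 1819 CPM in Tspan8posMHCIIhi and at 1975 and 2517 CPM in Tspan8posMHCIIlo. The Tspan8negMHCIIhi libraries lay below all 6 others, and the 2 MHCIIlo subsets overlapped. Its order was Tspan8negMHCIIlo, Tspan8posMHCIIlo, Tspan8posMHCIIhi, Tspan8negMHCIIhi, and of the neighbours in that order only the last pair passed an adjusted p of 0.01 (edgeR log2 difference 0.92 ± 0.14 SE, adjusted p = 0.00048). That difference stayed under the 2-fold limit used for a call.

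Fosb (ENSMUSG00000003545, chr7:19302696-19310051, − strand), a close relative with its own transactivation domain, was at 2983 and 2389 CPM in Tspan8negMHCIIlo and at 1192 and 1128 CPM in Tspan8negMHCIIhi. It was at 1558 and 1674 CPM in Tspan8posMHCIIhi and at 2248 and 2623 CPM in Tspan8posMHCIIlo. The order of subsets was that of Fos, and no neighbours in it passed an adjusted p of 0.01 (smallest edgeR adjusted p = 0.012).

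Fosl2 (ENSMUSG00000029135, chr5:32135801-32157842, + strand), a Fos-related subunit without the strong activation domain of Fos, was at 358.1 and 442.8 CPM in Tspan8negMHCIIlo. It was at 162.8 and 157.0 CPM in Tspan8negMHCIIhi, at 528.7 and 456.4 CPM in Tspan8posMHCIIhi and at 488.1 and 458.9 CPM in Tspan8posMHCIIlo. Tspan8negMHCIIhi stood apart below the rest, and no neighbouring pair among the 3 other subsets passed the test (smallest edgeR adjusted p = 0.201).

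Fosl1 (ENSMUSG00000024912, chr19:5447547-5455946, + strand), the other Fos-related subunit, was at 92.1 and 54.5 CPM in Tspan8negMHCIIlo and at 93.4 and 63.5 CPM in Tspan8negMHCIIhi. It was at 136.6 and 95.7 CPM in Tspan8posMHCIIhi and at 166.0 and 95.3 CPM in Tspan8posMHCIIlo. Its libraries within a subset differed widely, and the first was above the second in every subset. The MHCIIlo and MHCIIhi subsets overlapped in Tspan8neg and in Tspan8pos cells. All Tspan8pos libraries (95.3 CPM or more) lay above all Tspan8neg libraries (93.4 CPM or less). Neither Tspan8 comparison passed the test (edgeR adjusted p = 0.0648 in MHCIIlo and 0.166 in MHCIIhi). Fosl1 overlaps Ccdc85b on the other strand, which averaged 3.87–9.66 CPM, so its reads could be shared between the genes if the counting ignored strand.

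The Jun family supplies the obligate partners. Jun (ENSMUSG00000052684, chr4:95049034-95052222, − strand), the strongest activator of the family, was at 3635 and 3106 CPM in Tspan8negMHCIIlo and at 1026 and 1201 CPM in Tspan8negMHCIIhi. It was at 1499 and 1963 CPM in Tspan8posMHCIIhi and at 2062 and 2492 CPM in Tspan8posMHCIIlo. No subset overlapped another. Of its neighbours, Tspan8posMHCIIhi was above Tspan8negMHCIIhi by 0.64 ± 0.16 (SE) log2 units (edgeR adjusted p = 0.00927), under the 2-fold limit, and Tspan8negMHCIIlo was above Tspan8posMHCIIlo by 0.56 ± 0.16 (adjusted p = 0.0156). Junos, an RNA on the other strand of Jun, averaged 1.47–5.42 CPM.

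Junb (ENSMUSG00000052837, chr8:84974484-84978718, − strand), a Jun protein that can weaken the action of Jun, was at 1393 and 1351 CPM in Tspan8negMHCIIlo and at 1102 and 978.4 CPM in Tspan8negMHCIIhi. It was at 877.9 and 1132 CPM in Tspan8posMHCIIhi and at 1222 and 1197 CPM in Tspan8posMHCIIlo. These levels spanned a far narrower range than those of Jun, and no neighbours in the order of means passed the test (smallest edgeR adjusted p = 0.213). Junb overlaps Prdx2 on the other strand, which averaged 169.6–203.0 CPM and was called in none of the comparisons by edgeR (smallest adjusted p = 0.142).

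Jund (ENSMUSG00000071076, chr8:70698949-70700616, + strand), the Jun protein that is least dependent on stimulation, was at 660.9 and 622.4 CPM in Tspan8negMHCIIlo and at 462.1 and 422.5 CPM in Tspan8negMHCIIhi. It was at 621.3 and 730.7 CPM in Tspan8posMHCIIhi and at 1095 and 893.7 CPM in Tspan8posMHCIIlo. Unlike Fos and Jun, it was highest in Tspan8posMHCIIlo, and Tspan8posMHCIIhi and Tspan8negMHCIIlo overlapped. The partly overlapping Gm11175 on the other strand averaged 0.608–2.195 CPM. Some genes from other lists that are named here also overlap a gene on the other strand. They are Aire, Bach2, Ccn2, Ccnd1, Crem, Ereg, Egf, Tgfa, Hspd1 and Tspan8.

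Atf3 (ENSMUSG00000026628, chr1:191170296-191218039, − strand), a stress-induced factor that can repress as well as activate, was at 2016 and 1373 CPM in Tspan8negMHCIIlo and at 576.5 and 499.6 CPM in Tspan8negMHCIIhi. It was at 1031 and 1101 CPM in Tspan8posMHCIIhi and at 1327 and 1375 CPM in Tspan8posMHCIIlo. Tspan8negMHCIIhi was again below all other libraries, and the 2 Tspan8negMHCIIlo libraries differed more from each other than those of any other subset.

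Egr1 (ENSMUSG00000038418, chr18:34859823-34864984, + strand), a zinc finger factor that binds GC-rich elements and not AP-1 sites, was at 1797 and 1619 CPM in Tspan8negMHCIIlo and at 1059 and 1095 CPM in Tspan8negMHCIIhi. It was at 1119 and 1223 CPM in Tspan8posMHCIIhi and at 1317 and 1563 CPM in Tspan8posMHCIIlo. The subsets did not overlap, but no neighbours in their order passed the test (smallest edgeR adjusted p = 0.138).

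Batf (ENSMUSG00000034266, chr12:85686669-85709087, + strand), a lymphoid AP-1 factor, was scarce. It was at 3.93 and 9.67 CPM in Tspan8negMHCIIlo, at 9.98 and 8.72 CPM in Tspan8negMHCIIhi, at 4.98 and 6.502 CPM in Tspan8posMHCIIhi and at 6.05 and 4.91 CPM in Tspan8posMHCIIlo. These values rest on 11 to 68 counts a library. The Tspan8negMHCIIlo library with more Batf was the one with the larger sum of thymocyte markers (1016 against 362.1 CPM), and the part of these cells in Batf was not tested.

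Per length, the leading transcript changed with the subset. Fos and Jun led in Tspan8negMHCIIlo, at 1092 ± 62.3 and 1057 ± 117 CPM per kb (SD, n = 2), and Atf3 came next at 786.7 ± 211. In Tspan8negMHCIIhi, Junb led at 452.1 ± 38.0 CPM per kb, ahead of Fos at 376.5 ± 18.6 and Jun at 349.2 ± 38.7. Fos led again in Tspan8posMHCIIhi (712.2 ± 86.8 CPM per kb) and in Tspan8posMHCIIlo (954.8 ± 163), with Jun after it (542.9 ± 103 and 714.0 ± 95.5). Of the summed CPM per kb of the 10 genes, Junb held on average 20.7% in Tspan8negMHCIIhi and 12.4–13.5% elsewhere, and Jund held 8.02% in Tspan8negMHCIIlo and 12.2–14.1% elsewhere. Jun held 22.0% in Tspan8negMHCIIlo and 16.0–16.8% elsewhere. Fosl1 and Fosl2 never exceeded 1.81% on average, and Batf stayed at or below 0.305%. These shares are descriptions with no test.

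**Figure D2:**
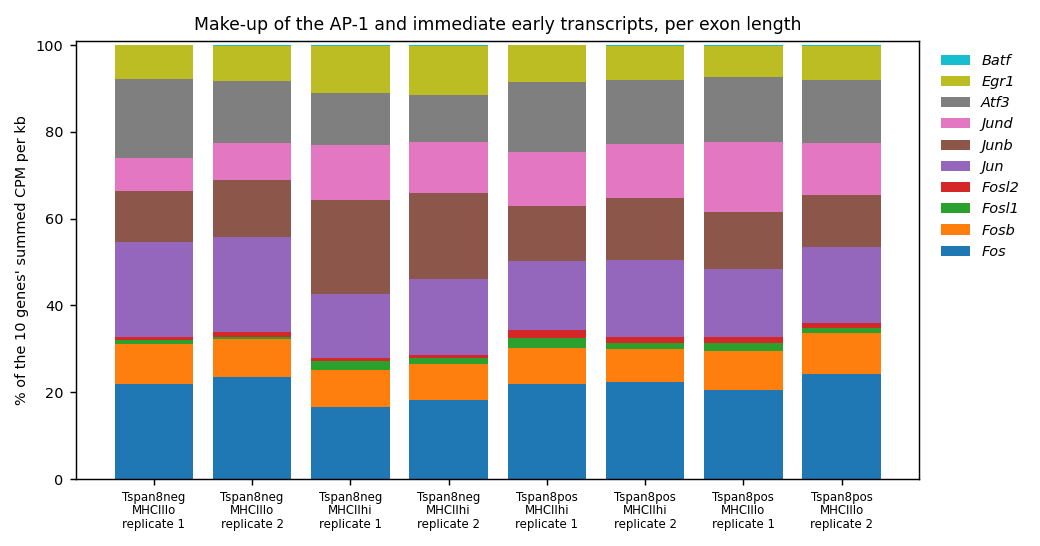
Stacked bars of the share (%) of each gene in the summed CPM per kb of the 10 genes, 1 bar a library. Junb takes its widest share in the Tspan8negMHCIIhi bars (mean 20.7%), and Jun takes its widest in the Tspan8negMHCIIlo bars (mean 22.0%).

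The first comparison asked how MHCIIhi cells differ from MHCIIlo cells without Tspan8. A gene was called when its adjusted p in edgeR's quasi-likelihood test was under 0.01 and its fold change at least 2 (two-sided, all 8 libraries in 1 fit). In Tspan8neg cells, 5 of 10 genes fell in MHCIIhi, while 9.67% of all genes tested were called lower. Atf3 fell by 1.66 ± 0.17 (SE) on the log2 scale, a 3.15-fold difference (adjusted p = 2.91e-05). Jun fell by 1.60 ± 0.16 (3.03-fold, adjusted p = 2.72e-05) and Fos by 1.54 ± 0.14 (2.90-fold, adjusted p = 1.57e-05). Fosl2 fell by 1.32 ± 0.14 (adjusted p = 4.16e-05) and Fosb by 1.21 ± 0.14 (adjusted p = 5.3e-05). Both Fos family and Jun family subunits, and Atf3, differed in the same direction. Egr1 was lower by less than the fold limit (log2 difference −0.67 ± 0.13, adjusted p = 0.00157). Jund (−0.54 ± 0.14, adjusted p = 0.0101) and Junb (−0.40 ± 0.14, adjusted p = 0.0365) did not pass, and Fosl1 (0.10 ± 0.31) and Batf (0.43 ± 0.41) had intervals on both sides of 0. The median log2 difference was −0.94 over the 10 genes and −0.04 over all 17006 genes. In 8 of 10 genes the 2 subsets did not overlap, against 72.1% of all genes.

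The Tspan8negMHCIIlo library with the most thymocyte markers was left out in 1 fit. There Fos differed by −1.60, Fosb by −1.37, Fosl2 by −1.17, Jun by −1.72 and Atf3 by −1.92 on the log2 scale. The Tspan8negMHCIIlo library that stayed still summed to 362.1 CPM of thymocyte markers, against 65.9 and 135.2 CPM in Tspan8negMHCIIhi. Sums of endothelial markers (3 genes) were 85.6–106.5 CPM in Tspan8negMHCIIlo and 17.5–20.9 CPM in Tspan8negMHCIIhi, and heat shock genes (12 genes) summed to 18810–21120 CPM and 13700–16380 CPM. The thymocyte, endothelial, heat shock and tuft lists moved with the members, and their part in the result was not tested.

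The same MHCII comparison in Tspan8pos cells called 0 of 10 genes by edgeR, where 7.21% of all genes were called. DESeq2 also called 0, where it called 1201 of all 17006 genes, and 5 of 10 genes had an unadjusted p under 0.05 by edgeR. The share of all genes at that looser threshold was not counted, here or below, so such counts have no background. Fosb had the lowest adjusted p (log2 difference −0.59 ± 0.14, adjusted p = 0.012), followed by Jund (−0.56 ± 0.14, adjusted p = 0.0202). Fos was at −0.42 ± 0.14, Jun at −0.40 ± 0.16 and Atf3 at −0.34 ± 0.17, and Fosl2 was at 0.06 ± 0.14 with an interval from −0.25 to 0.37. The median was −0.32 over the 10 genes and 0.01 over all genes. In 7 of 10 genes the subsets did not overlap, against 58.1% of all genes.

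**Figure D3:**
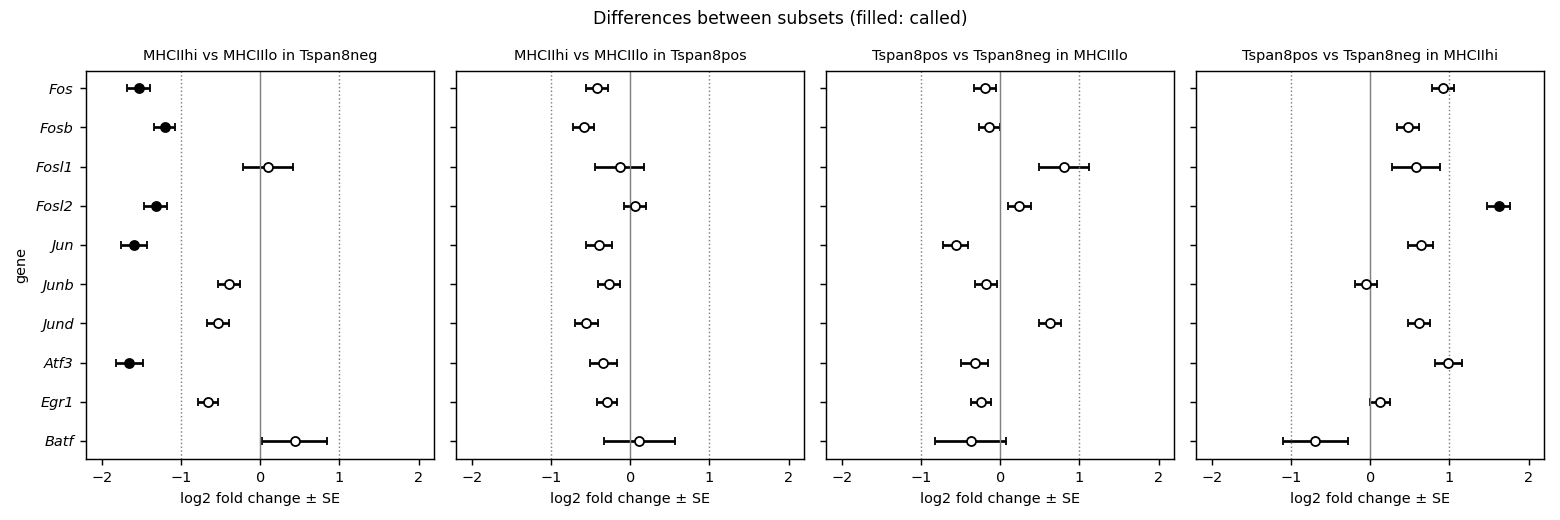
Log2 fold change with its standard error (bars) of each gene in 4 comparisons of subsets, each from 2 against 2 libraries in 1 edgeR fit; filled points were called and dotted lines mark the 2-fold limit. The 5 filled points at −1.66 to −1.21 in the left panel face 0 filled points in the next panel, and Fosl2 is the 1 filled point in the right panel.

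The second pair of comparisons asked how Tspan8pos cells differ from Tspan8neg cells at each MHCII level. Among MHCIIlo cells, edgeR and DESeq2 each called 0 of 10 genes, with 21.4% of all genes called by edgeR. At an unadjusted p under 0.05, not counted over all genes, there were 3 of 10. Jund was higher in Tspan8posMHCIIlo by 0.63 ± 0.14 (adjusted p = 0.00434) but under the fold limit, and Jun was at −0.56 ± 0.16 (adjusted p = 0.0156). Fosl1 was at 0.81 ± 0.32 (adjusted p = 0.0648), and without the first Tspan8negMHCIIlo library it was called at 1.202. Fos (−0.19 ± 0.14) and Fosb (−0.14 ± 0.14) had intervals from −0.51 to 0.12 and from −0.44 to 0.16. The median was −0.19 over the 10 genes and −0.03 over all genes. In 6 of 10 genes the subsets did not overlap, against 67.8% of all genes.

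Among MHCIIhi cells, 1 of 10 genes rose, Fosl2, which was 3.08-fold higher in Tspan8posMHCIIhi (log2 difference 1.62 ± 0.14, adjusted p = 8.63e-06), where 11.0% of all genes were called higher. Without the fold limit, 5 of 10 genes were higher at an adjusted p under 0.01, against 15.0% of all genes. The other 4 were Atf3 (0.99 ± 0.17, adjusted p = 0.000889), Fos (0.92 ± 0.14), Jun (0.64 ± 0.16) and Jund (0.61 ± 0.14). The count of calls lay near the fold limit: it was 2 or 3 without single libraries, the first of Tspan8negMHCIIlo, Tspan8negMHCIIhi or Tspan8posMHCIIlo giving 2 (with Atf3) and the first of Tspan8posMHCIIhi giving 3 (with Fos and Atf3). Junb was at −0.05 ± 0.14 and Egr1 at 0.12 ± 0.13. All 4 tuft markers were called higher in the same comparison (median log2 difference 2.76, sums of 127.5–138.8 against 874–1001 CPM), and their part in the result was not tested. The median was 0.59 over the 10 genes and −0.03 over all genes, and in 9 of 10 genes the subsets did not overlap, against 73.8% of all genes.

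Whether the Tspan8 difference depended on MHCII was tested as the interaction, the log2 Tspan8 difference in MHCIIlo minus that in MHCIIhi. It was called in 4 of 10 genes, all lower, where 2.24% of all genes were called lower. Fosl2 had −1.38 ± 0.20 (SE, adjusted p = 0.00191), Atf3 −1.31 ± 0.24 (adjusted p = 0.0057), Jun −1.201 ± 0.23 (adjusted p = 0.00705) and Fos −1.11 ± 0.20 (adjusted p = 0.00575). Jun was at −0.56 in MHCIIlo and 0.64 in MHCIIhi, so the 2 differences had opposite signs, and for Fosl2 they were 0.24 and 1.62. Fosb (−0.62 ± 0.19, adjusted p = 0.0593) and Egr1 (−0.37 ± 0.18, adjusted p = 0.218) did not pass, and Jund was at 0.02 ± 0.20 with an interval from −0.42 to 0.46. The median was −0.49 over the 10 genes and −0.06 over all genes. The call depended on single libraries: 0 genes were called without either Tspan8negMHCIIhi library, 1 without any single Tspan8posMHCIIhi or Tspan8posMHCIIlo library, and 4 without either Tspan8negMHCIIlo library. Over these 8 fits the 4 genes kept their sign, with adjusted p up to 0.0464 and differences from −1.58 to −0.98.

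**Figure D4:**
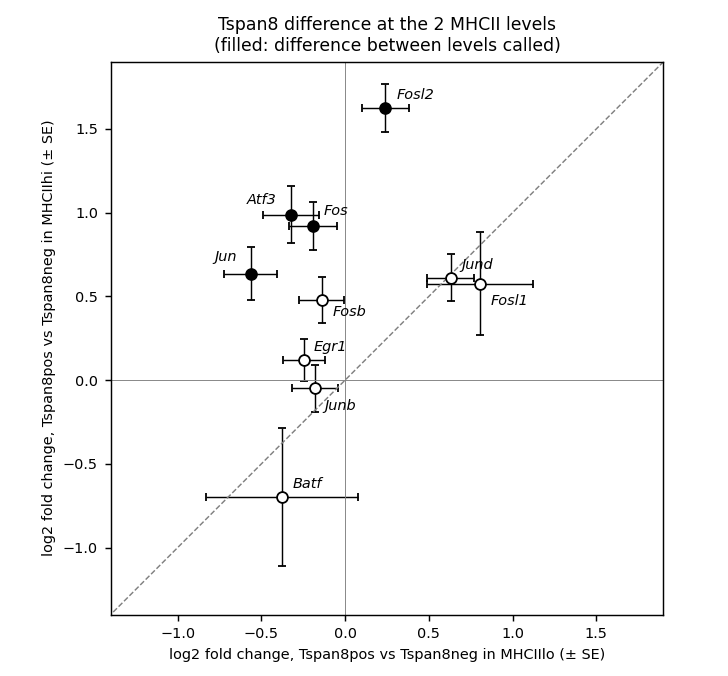
Log2 fold change of Tspan8pos against Tspan8neg in MHCIIlo (horizontal) and in MHCIIhi (vertical) for the 10 genes, with standard errors; the dashed line marks equal differences and filled points were called for the interaction. Fos, Fosl2, Jun and Atf3 lie above the line, and Jund lies on it at 0.63 and 0.61.

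The diagonal comparisons share their libraries with those above and repeat none of their support. Between the subset lowest in most members and the Tspan8posMHCIIlo subset, 6 of 10 genes were higher in Tspan8posMHCIIlo, where 14.7% of all genes were called higher: Fosl2 by 1.56 ± 0.14, Fos by 1.34 ± 0.14, Atf3 by 1.33 ± 0.17, Jund by 1.17 ± 0.14, Fosb by 1.07 ± 0.14 and Jun by 1.03 ± 0.16 on the log2 scale. Jun and Fosb lay near the fold limit: DESeq2 called 4 of the 10 genes, and its calls over all genes were not counted here. Between Tspan8posMHCIIhi and Tspan8negMHCIIlo, edgeR and DESeq2 each called 0 genes, with 24.7% of all genes called by edgeR. At an unadjusted p under 0.05, not counted over all genes, there were 6 of 10. Jun was nearest to the fold limit there (−0.96 ± 0.16, adjusted p = 0.000603). It was called, as 1 of 10, without the second Tspan8negMHCIIlo library (−1.07) or the second Tspan8posMHCIIhi library (−1.16).

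Other immediate early genes were counted from a list of 29, all tested. In Tspan8neg cells, 12 were lower and 3 higher in MHCIIhi, against 9.67% and 13.1% of all genes. Dusp6, a phosphatase that dampens ERK signalling, was at 82.3 and 66.0 CPM in Tspan8negMHCIIlo and 11.4 and 14.6 CPM in Tspan8negMHCIIhi (log2 difference −2.49 ± 0.18, adjusted p = 2.83e-06). Ccn2, a matricellular protein gene formerly named Ctgf, was at 39.6 and 28.5 CPM and at 3.74 and 4.61 CPM (−2.997 ± 0.32, adjusted p = 3.54e-05). Egr3, an Egr family factor, was at 65.7 and 76.2 CPM and at 19.96 and 26.0 CPM (−1.61 ± 0.18, adjusted p = 5e-05). The 3 that were higher were Ptgs2, Arc and Gadd45b, named after their values were seen, at 2.58, 1.18 and 1.13. Egr3 was highest in Tspan8posMHCIIlo (mean 309.8 CPM), unlike Fos and Jun. It was called higher in Tspan8pos by 2.13 ± 0.17 in MHCIIlo and by 2.84 ± 0.18 in MHCIIhi. In MHCIIhi, Dusp6 (3.01 ± 0.18) and Ccn2 (1.33 ± 0.33) were also called higher in Tspan8pos. In MHCIIlo, Dusp6 was at 0.64 ± 0.16, under the fold limit, and Ccn2 was called lower (−1.13 ± 0.29). Among MHCIIhi cells, 10 of 29 were higher and 2 lower in Tspan8pos (11.0% and 7.45% of all genes), and among MHCIIlo cells 7 were higher and 4 lower (12.1% and 9.34% of all genes). In Tspan8pos cells 1, Ptgs2, was higher and 0 were lower in MHCIIhi (7.21% of all genes were called either way), with 13 at an unadjusted p under 0.05 and 1 called by DESeq2. The interaction was called in 6 lower and 1 higher, Arc, against 2.24% and 2.36% of all genes.

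Upstream kinases and factors (19 genes, all tested) are the MAP kinases and the factors of the serum response and cyclic AMP response elements. In Tspan8neg cells 3 were lower and 0 higher in MHCIIhi (11 at an unadjusted p under 0.05, 2 called by DESeq2), where 9.67% of all genes were lower. Among MHCIIhi cells 3 were higher and 0 lower in Tspan8pos, where 11.0% of all genes were higher, so neither count stood far from that of all genes. Mapk3, which encodes the kinase ERK1, was at 58.0 and 60.0 CPM in Tspan8negMHCIIhi and at 223.6 and 252.4 CPM in Tspan8posMHCIIhi (2.01 ± 0.13, adjusted p = 9.9e-07). Mapk14, the stress kinase p38 alpha, was at 53.0 and 44.0 CPM in Tspan8negMHCIIhi and at 102.6–132.3 CPM in all other libraries. Crem, a cyclic AMP responsive factor, followed another order: it was at 38.2 and 44.3 CPM in Tspan8negMHCIIlo and at 5.32–14.4 CPM in the 6 other libraries.

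Ligands of the EGF receptor, which signal through ERK, were mostly higher in Tspan8pos cells. Of 11 receptor and ligand genes, 10 were tested, and 8 rose and 0 fell in Tspan8pos at each MHCII level (8 and 10 genes at an unadjusted p under 0.05, and 8 called by DESeq2 at each), where 12.1% of all genes were called higher in MHCIIlo and 11.0% in MHCIIhi. Hbegf was at 21.8–45.2 CPM in the Tspan8neg libraries and at 169.1–216.6 CPM in the Tspan8pos libraries, with log2 differences of 2.28 ± 0.17 in MHCIIlo and 2.81 ± 0.17 in MHCIIhi. Areg was at 3.09–13.1 CPM and at 65.5–78.0 CPM, with 3.91 ± 0.28 and 2.61 ± 0.23. Tgfa was at 9.90–25.9 CPM and at 70.9–114.8 CPM, with 3.24 ± 0.21 and 1.76 ± 0.19, and its interaction was called at 1.48 ± 0.28. Epgn was at 1.69–8.11 CPM and at 18.9–30.2 CPM, and Btc at 0.943–3.33 CPM and at 9.34–13.8 CPM. Ereg was at 0.281–3.46 CPM in the Tspan8neg libraries, with at most 3 counts in the Tspan8negMHCIIlo libraries (the floor) and up to 27 in Tspan8negMHCIIhi, and at 16.2–24.7 CPM in the Tspan8pos libraries. Among the receptors, Erbb3 was at 52.3–75.9 CPM and at 302.3–373.0 CPM. Egfr, like Fos and Jun, was lowest in Tspan8negMHCIIhi: it was at 43.0 and 32.3 CPM in Tspan8negMHCIIhi and at 69.1–140.4 CPM elsewhere. Egf was at 0.550–3.95 CPM and was called in none of the comparisons, and Erbb4 was not tested.

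**Figure D5:**
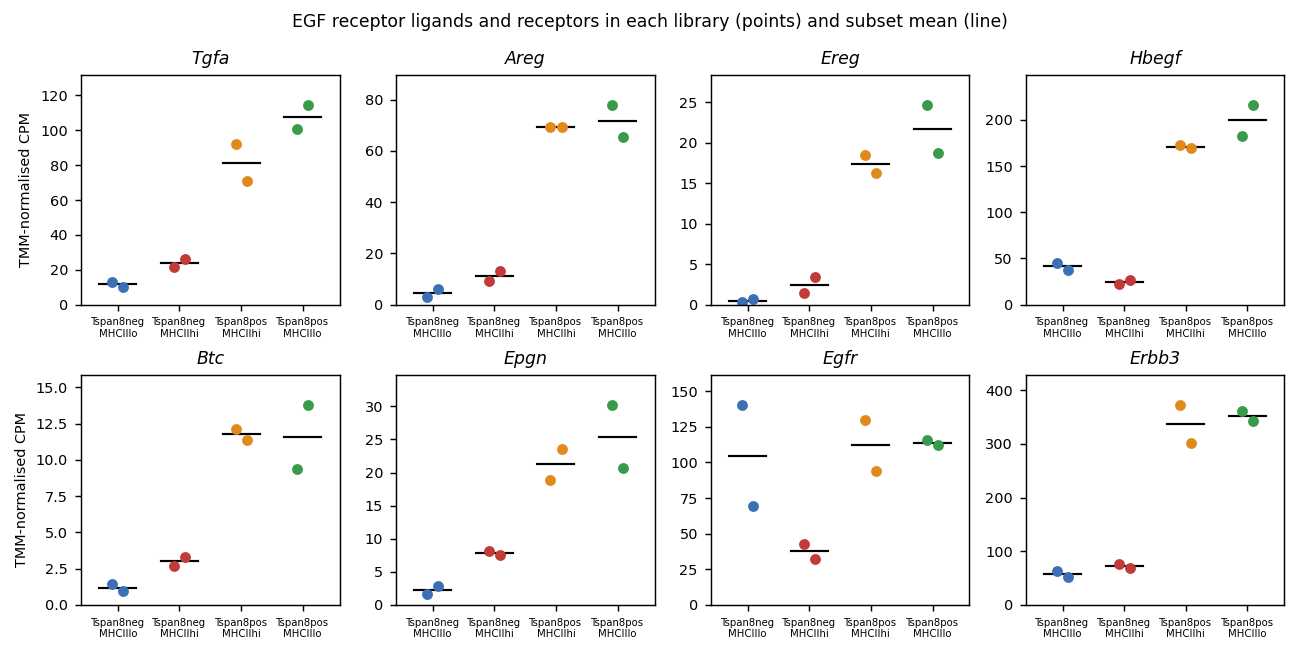
TMM-normalised CPM (linear axis from 0) of 6 EGF receptor ligands and the receptors Egfr and Erbb3 in the 8 libraries; points are libraries and lines are subset means (n = 2). The ligands and Erbb3 are higher in all 4 Tspan8pos libraries than in all 4 Tspan8neg libraries, while Egfr is lowest in Tspan8negMHCIIhi.

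Textbook AP-1 targets moved in both directions. Of 17 genes, 16 were tested, and in Tspan8neg cells 5 were higher and 2 lower in MHCIIhi, the subset with the lowest Fos and Jun, against 13.1% and 9.67% of all genes. Ivl, which encodes the cornified envelope protein involucrin, was at 5.51–9.27 CPM in the Tspan8neg libraries and at 210.5–366.1 CPM in the Tspan8pos libraries (log2 differences of 5.34 ± 0.29 in MHCIIlo and 5.13 ± 0.28 in MHCIIhi). Sprr1b, a small proline-rich envelope gene, was at 5.62 and 4.01 CPM in Tspan8negMHCIIlo, at 36.6 and 34.2 CPM in Tspan8negMHCIIhi and at 88.7–278.6 CPM in the Tspan8pos libraries, and it was also called between MHCII levels in Tspan8neg cells (2.89, adjusted p = 0.00113). Mmp13, a collagenase, was at 9.36 and 13.7 CPM in Tspan8negMHCIIhi and at 3.39 and 5.08 CPM in Tspan8posMHCIIhi. It was at 0.843 and 0.236 CPM in Tspan8negMHCIIlo and at 0 counts in both Tspan8posMHCIIlo libraries. Like Sprr1b, it was called higher in MHCIIhi of Tspan8neg cells (4.43, edgeR adjusted p = 0.00036). Unlike Ivl and Sprr1b, it was lower in Tspan8pos, though called at neither MHCII level. Among MHCIIlo cells, 5 targets were called higher and 3 lower in Tspan8pos (12.1% and 9.34% of all genes). Among MHCIIhi cells, 6 were called higher and 2 lower (11.0% and 7.45%).

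Factors that can bind with Batf or AP-1 (5 genes, all tested) were higher in MHCIIhi for Irf4 and Irf8, which are partners of Batf on composite sites. Irf4 was at 46.4 and 59.2 CPM in Tspan8negMHCIIlo, 240.4 and 225.5 CPM in Tspan8negMHCIIhi, 65.9 and 66.4 CPM in Tspan8posMHCIIhi and 13.7 and 12.6 CPM in Tspan8posMHCIIlo. It rose in MHCIIhi by 2.14 ± 0.15 in Tspan8neg and by 2.35 ± 0.18 in Tspan8pos cells. Irf8 was at 430.9 and 384.1 CPM in Tspan8negMHCIIhi and at 71.5–216.8 CPM elsewhere, and rose by 1.781 ± 0.13 and 1.504 ± 0.13. Myeloid and dendritic markers (5 genes) summed to 362.7 and 406.2 CPM in Tspan8negMHCIIhi, 319.8 and 321 CPM in Tspan8posMHCIIhi and 55.0–126.4 CPM in the MHCIIlo libraries. Most of the MHCIIhi sums was Lyz2 (means of 305.2 CPM in Tspan8negMHCIIhi and 240.4 CPM in Tspan8posMHCIIhi). In Tspan8neg cells 2 of the 5 markers were called higher in MHCIIhi and 0 lower. Itgax was not called, and averaged 5.16 CPM in Tspan8negMHCIIhi and 17.5 CPM in Tspan8negMHCIIlo. Cd68 was higher in the Tspan8pos subsets (41.2 and 44.7 CPM) than in the Tspan8neg subsets (12.5 and 22.6 CPM). The part of these cells in Irf4, Irf8 and Batf3 was not tested. Nfatc1 was at 174.2 and 153.6 CPM in Tspan8posMHCIIlo and at 48.7–91.2 CPM elsewhere.

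Relatives of AP-1 were 13 genes, all tested. Among MHCIIhi cells 2 were higher and 1 lower in Tspan8pos, against 11.0% and 7.45% of all genes, and in Tspan8neg cells 1 was higher and 1 lower in MHCIIhi, against 13.1% and 9.67%. Batf3, a dendritic cell factor, was at 7.49 and 9.74 CPM in Tspan8negMHCIIhi and at 0–2.39 CPM elsewhere. Bach2, a repressor that shares AP-1 like sites, was at 7.28 and 7.31 CPM in Tspan8negMHCIIhi and at 15.4–24.4 CPM elsewhere, and like Fos, Fosb and Fosl2 it was lowest in Tspan8negMHCIIhi (−1.38 ± 0.24 in Tspan8neg, adjusted p = 0.000982).

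Heat shock genes (12, all tested) are also switched on by stress and by handling of cells. In Tspan8neg cells 2 were lower and 0 higher in MHCIIhi (6 at an unadjusted p under 0.05, 2 called by DESeq2), Hspb1 and Dnajb1, where 9.67% of all genes were lower. Hspb1 was at 186.5 and 218.5 CPM in Tspan8negMHCIIhi and at 761.7–1031 CPM elsewhere, and Dnajb1 was at 415.5 and 542.3 CPM there and at 756.4–1150 CPM elsewhere. Hspd1, the mitochondrial chaperonin, was at 462.5 and 535.4 CPM in Tspan8negMHCIIhi and at 143.5–398.2 CPM elsewhere. The list as a sum was highest in Tspan8negMHCIIlo and did not separate Tspan8negMHCIIhi from the Tspan8pos subsets (11770–15810 CPM).

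The genes whose log2 CPM was most correlated with each member over the 8 libraries were sought among the 11025 genes that averaged 10 CPM or more, leaving out Batf, which averaged less. The highest Pearson r was 0.992 for Fos (Ppp2r5b), 0.994 for Fosb (Stat2), 0.989 for Fosl2 (Adgrg1, and 0.984 for Hspb1), 0.996 for Jun (Ccn2), 0.984 for Junb (Gtpbp6), 0.985 for Jund (Vps9d1), 0.989 for Atf3 (Afap1), 0.978 for Egr1 (Rbm28) and 0.964 for Fosl1 (D17Wsu92e). The second were Abtb1, Gabbr1, Hspb1, Meis1, Top3b, Cmtm4, Lama5, Ube2o and Slc30a7. Between members, Fos and Fosb had r = 0.964 and Fos and Fosl1 r = 0.078. All 8 points are libraries of 4 subsets that share their groups, so these values describe how the subsets are ordered.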

How the data were processed

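RNA-seq was analysed in 8 libraries of sorted mTECs, 2 for each of 4 subsets grouped by the labels' Tspan8 and MHCII terms. The authors deposited expected counts per gene, estimated by Salmon 1.8.0 on build mm10 (Gencode vM10 transcripts), per the labels and the study's methods; the values are whole numbers, and how they were rounded and summed to genes is not given in the sources used here. The labels name a stranded kit and the methods a pre-amplified cDNA protocol, so whether counting used strand is not settled, and genes that overlap on opposite strands are uncertain. FastQC and DESeq2 1.30.0 are also named in the submitters' processing notes. Gene symbols were taken from GENCODE vM21 (25336 of 25466 ids matched).

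The counts were scaled by TMM, filtered with filterByExpr (17006 genes kept), and tested with edgeR 4.0.16 (R 4.3.3) by the quasi-likelihood test with a mean for each subset and all 8 libraries in 1 fit. The common dispersion was 0.024, a biological coefficient of variation of 15.5%. P-values were two-sided and adjusted by Benjamini-Hochberg over all genes tested, and calls required an adjusted p below 0.01 together with a log2 change of 1 or more in either direction. Replicates differed beyond sampling noise in every subset. Where nothing says that the 2 libraries came from separate mice, p-values measure only the spread between them, which may be partly technical. Totals of 1941518–7783841 counts limit the precision of genes under about 10 CPM, and intervals cover the model's error. The standard errors are approximate, since edgeR's test gives none. Each is the size of the log2 difference divided by the square root of the test statistic F. The 95% intervals were built from them.

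The rule for named genes was: all 10 members; from each other list the 3 called genes with the largest change over the 4 main comparisons, the EGF receptor ligands, Irf4 and Irf8; the 2 most correlated genes of each member that averaged 10 CPM or more; and Tspan8, H2-Ab1, Aire and Krt10 as label checks. One gene that this rule names is not reported here. The members and lists were chosen with earlier results of these data known. Alternatives were DESeq2 1.42.0 and its size factors, other filters on low counts, a replicate block, only the libraries compared, counts thinned to the smallest library, other thresholds, and leaving out each library. Promoter windows came from RefSeq GRCm38.p6 and were read for 8 of the 10 genes.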

Additional observations from a re-analysis of the deposited data

Results flagged for a closer look

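The Tspan8 difference was tested between the 2 MHCII levels, and the genes below differed beyond an adjusted p of 0.01 and 2-fold by edgeR; each value is the log2 Tspan8 difference in MHCIIlo minus that in MHCIIhi. Among the AP-1 and immediate early factors these were Fosl2 (−1.38), Atf3 (−1.31), Jun (−1.201) and Fos (−1.11).

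Other immediate early genes below 0 were Ccn2 (−2.46), Dusp6 (−2.36), Ccn1 (−2.25), Socs3 (−1.84), Nr4a2 (−1.73) and Ier3 (−1.35), and Arc was above 0 (1.72). Ccn1, formerly Cyr61, was at 702.5 and 595.3 CPM in Tspan8negMHCIIlo and at 91.3–219.9 CPM in the 6 other libraries, and Socs3 was at 1304 and 927.7 CPM there and at 204.2–405.6 CPM elsewhere. In Arc, both differences were above 0, at 2.63 in MHCIIlo and 0.91 in MHCIIhi. Of the upstream kinases and factors, Crem (−2.41) and Mapk14 (−1.24) differed, and of the heat shock genes, Hspb1 (−1.83). Tgfa (1.48) and Sprr1a (2.17) were higher in Tspan8pos at both levels and more so in MHCIIlo. Mmp9 (−1.94) and Ccnd1 (−1.33) were lower in Tspan8pos at both levels, at −3.39 and −2.15 in MHCIIlo and at −1.45 and −0.83 in MHCIIhi. For the 4 AP-1 factors the call rested on the Tspan8negMHCIIhi and Tspan8pos libraries, as given with the result. The calls of the other genes named here were not followed with single libraries left out, so they may rest on single libraries too.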

How the results depend on the processing

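The 5 calls in MHCIIhi against MHCIIlo of Tspan8neg cells held in each of 15 alternatives, 8 of which leave out a library. Counts of members called (of 10) moved as follows. Without the fold limit, Tspan8pos against Tspan8neg gave 1 in MHCIIlo (0 in the reported fit) and 5 in MHCIIhi (1 reported), and Tspan8posMHCIIhi against Tspan8negMHCIIlo gave 5 (0 reported). Leaving out single libraries gave 0 to 1, 1 to 3 and 0 to 1 in these 3 comparisons, 0 to 4 for the interaction, 4 to 6 in Tspan8posMHCIIlo against Tspan8negMHCIIhi, 5 in MHCIIhi against MHCIIlo of Tspan8neg cells and 0 in Tspan8pos cells. Fewer libraries also leave fewer degrees of freedom, and the cause was not tested. Calls over all genes moved too, as given below, but were not counted for the diagonal comparisons under these alternatives.

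Signs turned only in results that were not called. With counts thinned to the smallest library, the Batf interaction was −0.19 (0.32 reported). Leaving out libraries turned signs in ranges, over all alternatives, for MHCIIlo of −0.29 to 0.021 (Fosb) and −0.88 to 0.42 (Batf); for MHCIIhi of −0.23 to 0.14 (Junb); for MHCII in Tspan8neg of −0.26 to 0.51 (Fosl1) and −0.063 to 1.23 (Batf); for MHCII in Tspan8pos of −0.51 to 0.31 (Fosl1), −0.03 to 0.16 (Fosl2) and −0.092 to 0.43 (Batf); for the interaction of −0.22 to 0.60 (Fosl1), −0.33 to 0.056 (Junb), −0.17 to 0.15 (Jund) and −0.21 to 1.11 (Batf); and for Tspan8posMHCIIhi against Tspan8negMHCIIlo of −0.041 to 0.203 (Jund) and −0.73 to 0.54 (Batf).

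Replicate numbers are shared across subsets, and same-numbered libraries deviated together only weakly (correlations of 0.004 to 0.092). The reported fit did not treat them as pairs, and these correlations do not settle whether they were. With a replicate block the members called were 0 for Tspan8 in MHCIIlo, 1 in MHCIIhi, 5 for MHCII in Tspan8neg, 0 in Tspan8pos and 4 for the interaction. In the same order, the block gave 3792, 3268, 3970, 1404 and 1236 calls over all 17006 genes. Over all genes, interaction calls were 783 in the reported fit, 1236 with the block and 1267 without a filter on low counts. Without single libraries these calls were 189 to 1385, and calls over all genes fell from 3640 to as few as 2273 for Tspan8 in MHCIIlo, from 3143 to 2045 in MHCIIhi, from 3866 to 2360 for MHCII in Tspan8neg and from 1226 to 427 in Tspan8pos. The interaction has no fit on only the libraries compared, since it uses all 8.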
